A study of Mus musculus with 8 samples.

Results

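The transcripts described here are those of 10 genes known from the macrophages of the splenic red pulp: Spic, Csf1r, Adgre1, Vcam1, Cd5l, C1qa, C1qb, C1qc, Hmox1 and Slc40a1. They were picked by symbol from the 29426 genes of a count table of sorted CD8+ T cells, as a gauge of macrophage RNA in a T cell sort, and all 10 were found. The choice was made with the CPM (reads of a gene scaled to the library's total) of these same libraries known, by subset and by genotype. The members' own levels and differences are therefore given as a description. Where the text counts members past the threshold of the fit over all genes, between genotypes, between subsets or for the interaction, the count is part of that description and nothing is read from it.

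The data were 8 RNA sequencing libraries of CD8+ T cells from mouse spleen, 2 in each of 4 groups named mCre-MP, mCre-TN, WT-MP and WT-TN. The cells were enriched for CD8 on magnetic beads and sorted by flow cytometry on CD8, CD4, CD44, CD122 and viability. TN and MP are the subset names of the sample titles, and the design text writes VM where the titles write MP. WT is wild type. The series title joins miR-29 with Cre, but neither the allele nor the promoter driving Cre is stated, nor whether WT animals carried a transgene. The protocol covers both adult and neonatal spleens without assigning an age to a library, and the number of animals per library is not given either. Nothing in the labels says that replicates came from separate animals, so the p-values below measure the spread between libraries, which may be technical.

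Red-pulp macrophages engulf old erythrocytes, break down their heme and return the iron to the blood. Spi-C, the product of Spic, is the transcription factor their development depends on, and heme itself induces it. Heme oxygenase 1 (Hmox1) opens the heme ring and ferroportin (Slc40a1) exports the freed iron, while Csf1r is the receptor through which macrophages receive their survival signal. F4/80 (Adgre1), the adhesion molecule VCAM-1 (Vcam1), the secreted scavenger protein CD5L (Cd5l) and the 3 chains of complement C1q are further products of these cells. Vcam1 is also known from stroma and endothelium, and Hmox1 and Slc40a1 from many other cells.

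The 3 C1q genes lie side by side on the minus strand of chromosome 4 (GRCm38), within 18675 bases between 136880129 and 136898803, in the order C1qb, C1qc, C1qa. Gaps of 3616 and 2851 bases separate them. The other members are scattered: Slc40a1 on chromosome 1 (45908068 to 45926523, minus strand), Cd5l on chromosome 3 (87357881 to 87371073, plus strand) and Vcam1 on the same chromosome (116109949 to 116129688, minus strand). Hmox1 is on chromosome 8 (75093621 to 75100589, plus strand), Spic on chromosome 10 (88674772 to 88685015, minus strand) and Adgre1 on chromosome 17 (57358691 to 57483527, plus strand). In the GENCODE annotation 8 of the 10 genes overlap no other gene. Csf1r overlaps Hmgxb3 on the opposite strand and the microRNA gene Mir6983 on its own, and Vcam1 overlaps the unnamed transcript Gm43109 on the opposite strand. The strand setting of the counting is not given, so reads from these overlaps could have been assigned to either gene.

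Promoter sequences from RefSeq (GRCm38.p6) were at hand for 4 of the 10 genes, C1qb, C1qc, Spic and Cd5l. They are shown as background, since Spi-C belongs to the Ets family, whose members bind purine-rich sites. Whether Spi-C acts on these genes in these libraries was not tested. Each line gives the 250 bases upstream of the gene's start, read in the direction of the gene, with matches to AGGAAG on either strand in capitals (a match on the opposite strand reads CTTCCT).
C1qb, chr4:136886201-136886450, minus strand: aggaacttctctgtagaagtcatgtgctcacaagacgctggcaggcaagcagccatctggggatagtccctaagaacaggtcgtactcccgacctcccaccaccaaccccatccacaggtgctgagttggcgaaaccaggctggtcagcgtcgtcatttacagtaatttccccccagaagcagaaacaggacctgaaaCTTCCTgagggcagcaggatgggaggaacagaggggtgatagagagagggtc
C1qc, chr4:136892915-136893164, minus strand: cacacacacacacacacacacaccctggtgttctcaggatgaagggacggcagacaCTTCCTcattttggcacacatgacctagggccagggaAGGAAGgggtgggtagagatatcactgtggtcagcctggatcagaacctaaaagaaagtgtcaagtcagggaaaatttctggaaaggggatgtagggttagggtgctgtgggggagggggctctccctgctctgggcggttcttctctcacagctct
Spic, chr10:88683024-88683273, minus strand: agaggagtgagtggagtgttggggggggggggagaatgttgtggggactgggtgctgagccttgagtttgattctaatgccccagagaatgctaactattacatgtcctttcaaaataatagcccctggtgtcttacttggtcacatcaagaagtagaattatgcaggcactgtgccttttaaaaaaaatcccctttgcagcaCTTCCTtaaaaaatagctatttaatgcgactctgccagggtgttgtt
Cd5l, chr3:87357631-87357880, plus strand: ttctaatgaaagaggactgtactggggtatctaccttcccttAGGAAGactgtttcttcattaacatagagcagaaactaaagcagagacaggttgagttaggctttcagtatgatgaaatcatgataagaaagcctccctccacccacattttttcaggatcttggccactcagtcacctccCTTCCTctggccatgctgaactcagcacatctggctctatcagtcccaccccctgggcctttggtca
AGGAAG occurred once in C1qb, 2 times in C1qc, once in Spic and 2 times in Cd5l. Of 32851 RefSeq promoter windows of the same length, 29.5% held it on at least 1 strand. The longer GAGGAAGT, which contains AGGAAG, occurred among the 4 genes in C1qc alone, on the opposite strand and over 1 of its AGGAAG matches, and in 2.44% of all windows. RefSeq starts Spic and C1qc further downstream than GENCODE does, so 250 of the 250 bases of the Spic window and 151 of those of C1qc lie within the GENCODE span of the gene. A match describes these letters and does not show a bound site.

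Total counts per library ran from 13479586 to 30057658, and between 14834 and 15722 genes had at least 1 count. The libraries carried the T cell transcripts of their label: Cd8a lay between 1575 and 1858 CPM. Of the sort markers, Cd44 was at 162.1 and 150.7 CPM in mCre-MP, 16.5 and 13.1 in mCre-TN, 144.0 and 137.6 in WT-MP and 15.4 and 14.3 in WT-TN, and Il2rb (CD122) ran likewise. The 10 macrophage genes together made up 14.8 to 54.2 CPM. In bulk RNA, fewer macrophages or fragments of them and less RNA per cell cannot be told apart, and whether these reads came from macrophages or from T cells was not tested. A pair of libraries stood apart: WT-MP replicate 1 and WT-TN replicate 1 had the highest summed level, and values without them are given beside the results they touch.

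The summed level of the macrophage genes was lower in mCre than in WT in both subsets. Summed over the 10 genes, mCre-MP had 18.4 and 19.7 CPM and mCre-TN 18.2 and 14.8 CPM, against 54.2 and 29.9 CPM in WT-MP and 50.3 and 32.5 CPM in WT-TN. Every mCre library was thus below every WT library. The mean was 19.1 ± 0.908 CPM in mCre-MP and 42.1 ± 17.2 CPM in WT-MP, and 16.5 ± 2.41 CPM in mCre-TN and 41.4 ± 12.6 CPM in WT-TN (SD, n = 2 each). The log2 ratio of these means, mCre over WT, was −1.14 in MP and −1.33 in TN. Without the replicate 1 libraries of WT it was −0.65 in MP and −0.98 in TN. The spread within WT was wide in itself, with replicate 1 at 1.81 times replicate 2 in MP and 1.55 times in TN. In mCre the same ratios were 0.935 and 1.23. Between subsets the log2 ratio of the means, MP over TN, was 0.21 in mCre and 0.02 in WT; in mCre both MP libraries were above both TN libraries, by a narrow margin, and in WT they overlapped.

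**Figure D1:**
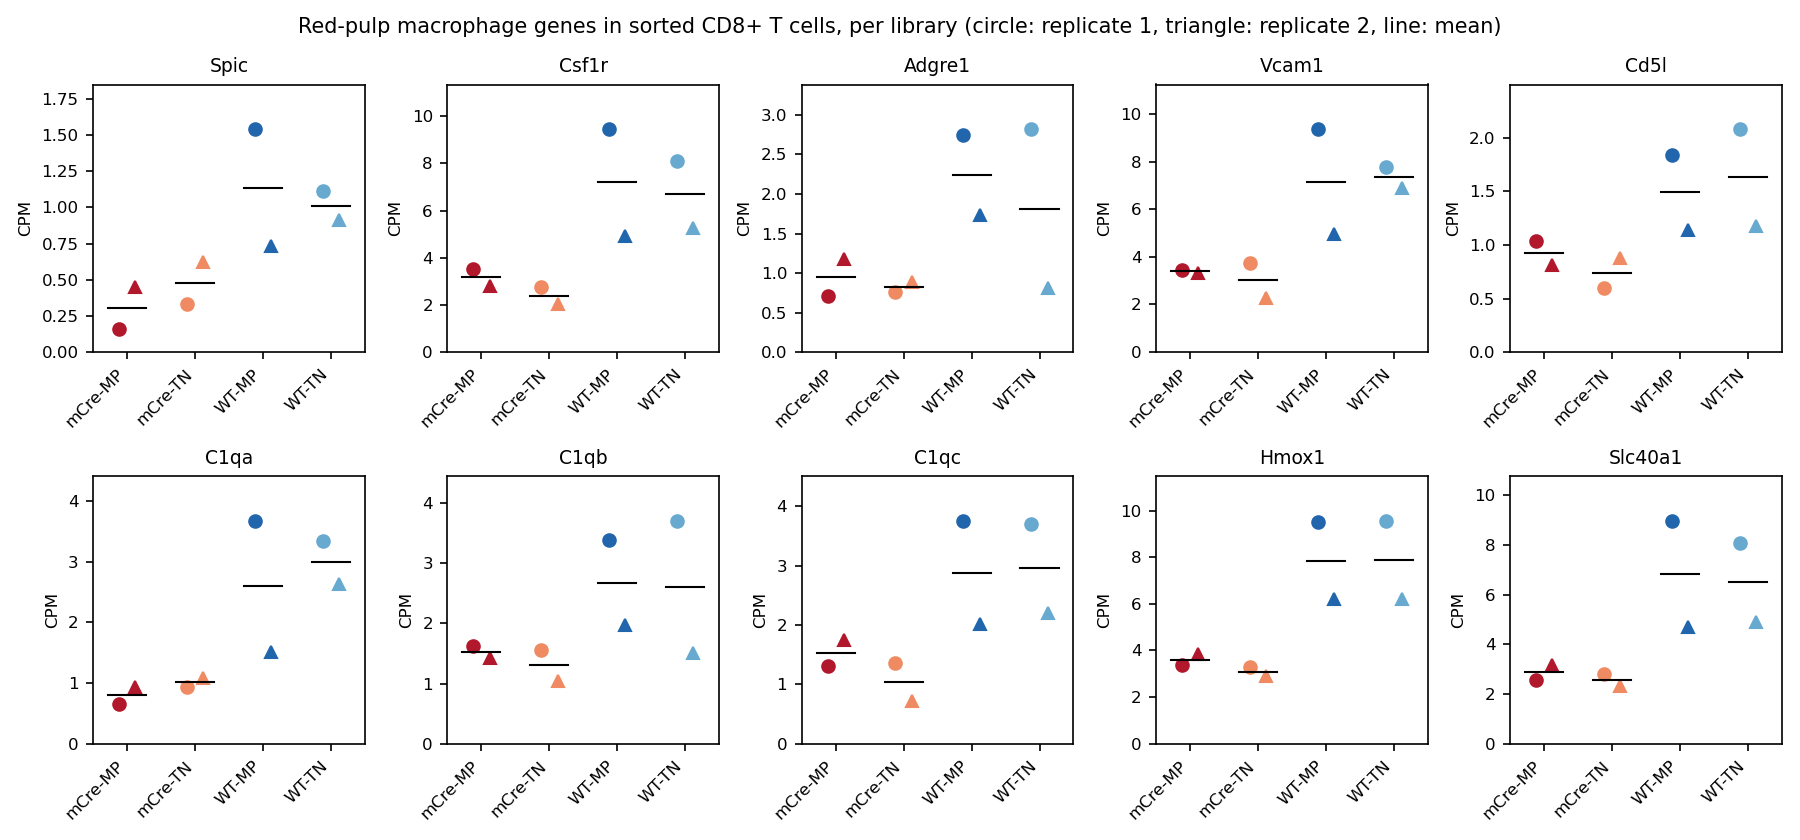
Levels of the 10 red-pulp macrophage genes in CPM (y axis, from 0) in each of the 8 libraries, by group (x axis). Circles are replicate 1, triangles replicate 2 and lines the mean of the 2; in each panel the WT circles lie above the WT triangles, and the mCre points lie below the WT points except in C1qb and Adgre1, where a WT-TN library reaches down to the mCre values.

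Spic is the factor that marks red-pulp macrophages. It had 0.163 and 0.448 CPM in mCre-MP and 0.333 and 0.622 CPM in mCre-TN, against 1.54 and 0.731 CPM in WT-MP and 1.11 and 0.915 CPM in WT-TN. All 4 mCre libraries were below all 4 WT libraries, although the lowest stood on 3 reads. Pooled over the 2 libraries of a group, its 95% Poisson interval was 0.178 to 0.547 CPM in mCre-MP (14 reads) and 0.858 to 1.51 CPM in WT-MP (52 reads), for counting error only. Csf1r, the growth factor receptor, had 3.54 and 2.81 CPM in mCre-MP and 2.76 and 2.02 CPM in mCre-TN, against 9.45 and 4.94 CPM in WT-MP and 8.09 and 5.27 CPM in WT-TN. Again no mCre library reached a WT library, and the mCre means were 44.1% of WT in MP and 35.8% in TN.

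Among the surface and secreted products, Vcam1 had 3.43 and 3.34 CPM in mCre-MP and 3.76 and 2.28 CPM in mCre-TN, against 9.36 and 4.94 CPM in WT-MP and 7.79 and 6.89 CPM in WT-TN. The F4/80 gene Adgre1 had 0.708 and 1.18 CPM in mCre-MP and 0.765 and 0.881 CPM in mCre-TN, against 2.74 and 1.74 CPM in WT-MP and 2.82 and 0.807 CPM in WT-TN. In Adgre1, WT-TN replicate 2 lay within the mCre values, so the groups overlapped in TN but not in MP. Cd5l, whose protein modulates lipid handling and apoptosis in macrophages, had 1.04 and 0.814 CPM in mCre-MP and 0.599 and 0.881 CPM in mCre-TN, against 1.84 and 1.14 CPM in WT-MP and 2.08 and 1.18 CPM in WT-TN. Its 8 libraries separated by genotype, with a narrow gap between the highest mCre and the lowest WT value.

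C1q is assembled from the products of C1qa, C1qb and C1qc and starts the classical complement pathway. C1qa had 0.654 and 0.936 CPM in mCre-MP and 0.932 and 1.09 CPM in mCre-TN, against 3.68 and 1.51 CPM in WT-MP and 3.34 and 2.64 CPM in WT-TN. C1qb had 1.63 and 1.42 CPM in mCre-MP and 1.56 and 1.04 CPM in mCre-TN, against 3.38 and 1.97 CPM in WT-MP and 3.71 and 1.51 CPM in WT-TN. C1qc had 1.31 and 1.75 CPM in mCre-MP and 1.36 and 0.725 CPM in mCre-TN, against 3.76 and 2.01 CPM in WT-MP and 3.71 and 2.21 CPM in WT-TN. C1qa and C1qc separated fully by genotype, whereas in C1qb the lower WT-TN library lay under an mCre-TN and an mCre-MP library. As a share of WT, the mCre mean of C1qa was 30.7% in MP and 33.8% in TN. That of C1qb was 57.3% and 49.8%, and that of C1qc 53.0% and 35.3%, in the same order of subsets.

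The heme and iron members carry out the recycling itself. Hmox1 had 3.38 and 3.83 CPM in mCre-MP and 3.29 and 2.9 CPM in mCre-TN, against 9.49 and 6.22 CPM in WT-MP and 9.57 and 6.19 CPM in WT-TN. Slc40a1 had 2.56 and 3.18 CPM in mCre-MP and 2.79 and 2.33 CPM in mCre-TN, against 8.98 and 4.71 CPM in WT-MP and 8.09 and 4.9 CPM in WT-TN. Both separated by genotype in every library, and both were highest in the replicate 1 libraries of WT.

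Fitted over all genes, the log2 fold changes of the 10 genes, mCre over WT, lay between −1.81 and −0.70 in MP with a median of −1.16, and between −1.58 and −0.94 in TN with a median of −1.28. Over all 12313 genes tested the median was 0.00 in each. Hmox1 had −1.12 (SE 0.235) in MP and −1.33 (SE 0.244) in TN, and C1qa −1.68 (SE 0.408) and −1.58 (SE 0.397). The least negative were Cd5l in MP (−0.70, SE 0.411) and C1qb in TN (−0.94, SE 0.411). At an adjusted p under 0.05, the threshold used for all genes, C1qa and Hmox1 were past it in MP, and C1qa, Csf1r, Hmox1 and Vcam1 in TN. Those are 2 and 4 of 10, each of them lower, where 1.97% and 1.92% of all genes were called lower, 2.08% and 1.55% higher, and 4.04% and 3.47% in either direction. DESeq2 placed 5 past it in each subset, beside 383 of all 12313 genes in MP and 364 in TN. Without its expression filter, edgeR placed 7 in MP and 6 in TN, beside 888 and 783 of 19137 genes. The range over all genes with 1 library left out is given under the dependence on processing. All 10 had groups that did not overlap in MP and 8 had in TN, beside 24.8% and 20.6% of all genes in that direction and 24.1% and 25.2% in the opposite one. For 8 members all 4 mCre libraries lay below all 4 WT libraries, beside 2.75% of all genes, with 4.02% the other way round. Spic, 1 of these 8 and the gene at −1.81 in MP, passed the expression filter only through the WT libraries, where it was higher. Leaving out either mCre-MP library or WT-MP replicate 1 left 0 past the threshold in MP, and leaving out WT-MP replicate 2 gave 5. In TN the count was 1 after leaving out mCre-TN replicate 2 or WT-TN replicate 1, and 6 after leaving out either WT-MP library. It was 2 after leaving out either mCre-MP library, mCre-TN replicate 1 or WT-TN replicate 2. With both replicate 1 libraries of WT left out it was 0 in MP and 3 in TN.

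**Figure D2:**
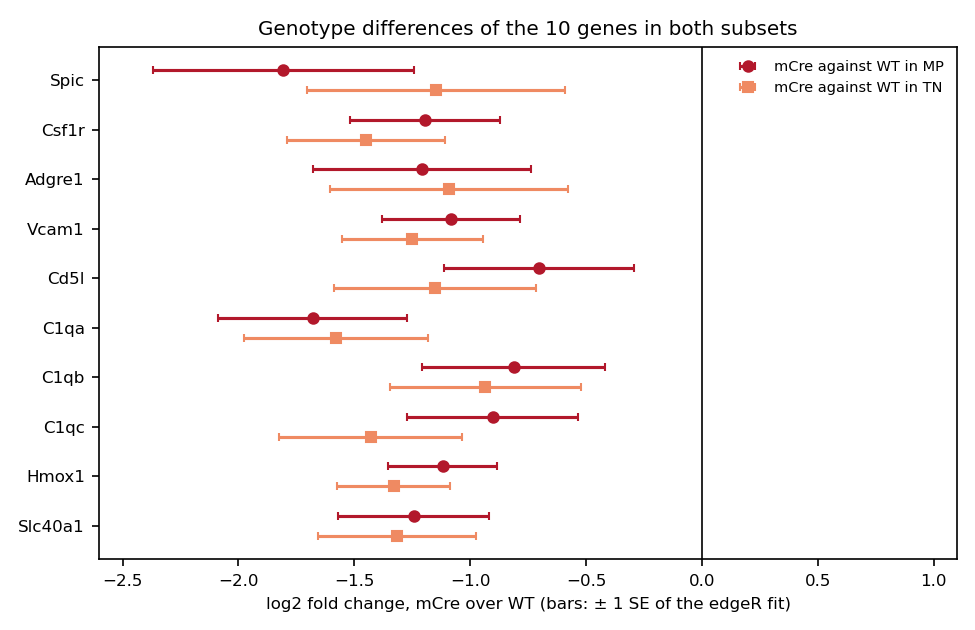
Log2 fold change of each of the 10 genes, mCre over WT, in MP (circles) and TN (squares), with bars of 1 standard error of the edgeR fit. All points lie left of 0, between −1.81 and −0.70, and the bars of the subsets overlap for each gene.

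Between subsets the fitted differences of the same genes were smaller. The log2 fold changes, MP over TN, lay between −0.46 and 0.54 in mCre (median 0.24) and between −0.17 and 0.39 in WT (median 0.07). Hmox1 had 0.25 (SE 0.256) in mCre and 0.03 (SE 0.224) in WT, and the widest value, C1qc in mCre, was 0.54 (SE 0.409). With edgeR 0 of 10 were past the threshold in either genotype, also at an unadjusted p under 0.05 and with DESeq2, where 32.5% of all genes were called in mCre (17.0% higher, 15.5% lower) and 31.7% in WT (16.2% higher, 15.6% lower). Without WT-TN replicate 1, 1 member, Adgre1, was past it in WT, at a log2 fold change of 1.49. Csf1r and Hmox1 had both mCre-MP libraries above both mCre-TN libraries, beside 29.5% of all genes; none had them below, beside 37.5%. In WT 0 members had groups apart, beside 30.0% higher and 34.1% lower. The difference of the genotype effect between subsets ran from −0.66 (Spic, SE 0.808) to 0.53 (C1qc, SE 0.542), and 0 of 10 members were past the threshold by edgeR, unadjusted or by DESeq2, beside 0.13% of all genes (0.0487% higher, 0.0812% lower). The standard errors of these differences, 0.34 to 0.808, leave room for sizeable ones.

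The shares of Hmox1 and Slc40a1 in the 10 genes' counts were close in the 4 groups. Hmox1 took 19.0% of the 10 genes' counts in mCre-MP, 18.7% in mCre-TN, 18.6% in WT-MP and 19.0% in WT-TN. Slc40a1 took 15.2%, 15.5%, 16.3% and 15.6% in the same order of groups. Across single libraries the share of Hmox1 ran from 17.5% to 20.8% and that of Slc40a1 from 13.9% to 16.6%. Spic ran from 0.888% to 4.21%, Adgre1 from 2.48% to 5.99% and C1qa from 3.55% to 8.11%. Among the other abundant members, Csf1r ran from 13.7% to 19.2% and Vcam1 from 15.4% to 21.2%. By group C1qa was at 4.26% in mCre-MP (95% Wilson interval 3.08 to 5.86), 5.9% in mCre-TN, 6.19% in WT-MP and 7.33% in WT-TN (6.03 to 8.89). Within each subset the intervals of C1qa overlapped between genotypes, with 5.2 to 7.36 in WT-MP and 4.49 to 7.71 in mCre-TN. The interval in mCre-MP did not reach that in WT-TN, a pair that differs in both genotype and subset. These intervals cover counting error only and rest on 822 to 1922 reads per group.

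**Figure D3:**
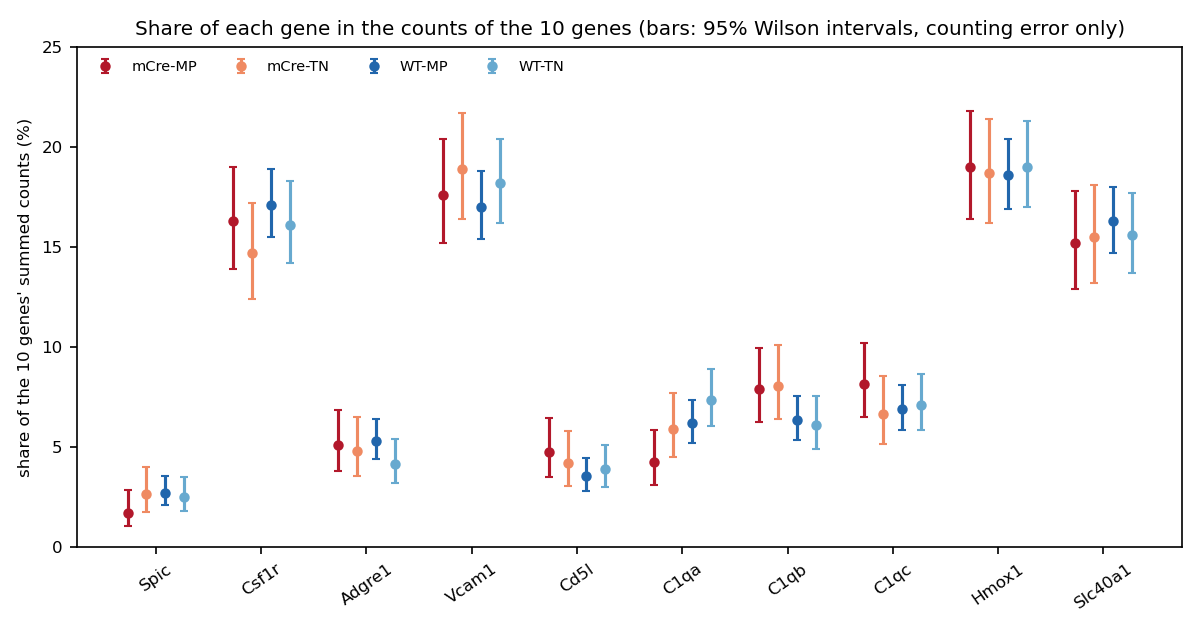
Share of each gene in the summed counts of the 10 genes (y axis, percent) in the 4 groups, with 95% Wilson intervals for counting error. The 4 points of a gene are closest together for Hmox1, between 18.6% and 19.0%, and widest apart for C1qa, between 4.26% and 7.33%.

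Per kilobase of annotated exon, the level averaged over the 8 libraries was highest for Hmox1, at 3.2 CPM per kilobase, which was above the next gene in 8 of 8 libraries. C1qb (1.86), C1qa (1.78) and C1qc (1.09) followed on the same scale. C1qb was above C1qa in 5 of 8 libraries and C1qa above C1qc in 6 of 8, so their order is not settled. Csf1r (0.842) was below C1qc and above Vcam1 (0.589) in all 8. The levels of Vcam1, Cd5l (0.588), Slc40a1 (0.521) and Adgre1 (0.449) changed places between libraries, and Spic (0.191) was lowest in 8 of 8. Before division by exon length C1qc averaged 2.1 CPM, Csf1r 4.86 CPM and Vcam1 5.22 CPM, so their order per kilobase rests on the length used.

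All 10 genes were higher in replicate 1 than in replicate 2 of WT-MP, and all 10 likewise in WT-TN. The ratios ran from 1.53 (Hmox1) to 2.44 (C1qa) in WT-MP and from 1.13 (Vcam1) to 3.49 (Adgre1) in WT-TN. Among all genes tested 27.8% were higher in replicate 1 in both WT subsets. In mCre-MP 4 of 10 were higher in replicate 1, and in mCre-TN 6 of 10. Whether the replicate 1 libraries of WT came from the same animals is not given.

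Macrophage genes outside the 10 were less uniform. Their list, too, was drawn up with earlier results of these data known, so its calls are not independent support for the pattern of the 10. Of 28 such genes 24 passed the expression filter. Their summed level was 57.7 and 56.7 CPM in mCre-MP and 56.2 and 57.2 CPM in mCre-TN, against 85.8 and 67.1 CPM in WT-MP and 75.6 and 65.6 CPM in WT-TN, so that here too every mCre library was below every WT library. In MP, 3 of the 24 fell in mCre and 0 rose, where 1.97% of all genes were called lower. At an unadjusted edgeR p under 0.05, 10 of the 24 were lower and 0 higher. The share of all genes at that looser threshold was not computed, so these 10 cannot be set against the 1.97%. Sirpa, an inhibitory receptor of myeloid cells, had 0.872 and 0.651 CPM in mCre-MP, against 3.38 and 1.65 CPM in WT-MP (log2 fold change −1.74, SE 0.410, edgeR adjusted p = 0.0199). Axl, a receptor for apoptotic cells, had 10.9 and 9.08 CPM in mCre-MP, against 17.3 and 14.4 CPM in WT-MP (−0.67, SE 0.147, edgeR adjusted p = 0.0116). Cd163, the hemoglobin scavenger receptor, had 0.327 and 0.448 CPM in mCre-MP, against 1.71 and 0.868 CPM in WT-MP (−1.70, SE 0.455, edgeR adjusted p = 0.0405). DESeq2 did not call Cd163 (DESeq2 adjusted p = 0.0619). The groups did not overlap in any of the 3. In TN, 1 fell and 0 rose, where 1.92% of all genes were called lower. At an unadjusted edgeR p under 0.05, 9 of the 24 were lower and 1 higher, again with no share of all genes at that threshold. Fcna, a ficolin made by macrophages, had 0.965 and 1.55 CPM in mCre-TN, against 3.71 and 2.85 CPM in WT-TN (−1.42, SE 0.337, edgeR adjusted p = 0.0227).

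With an arm reduced to 1 library, assumed to vary like the other groups, the direction of these 4 differences stayed and several calls were lost. Leaving out WT-MP replicate 1 left 0 of the 3 in MP, with log2 fold changes of −1.13 for Sirpa, −0.54 for Axl and −1.13 for Cd163. Leaving out mCre-MP replicate 2 also left 0, with −1.53, −0.54 and −1.97 in the same order of genes, and leaving out mCre-MP replicate 1 left Axl alone (−0.81). Fcna was lost when WT-TN replicate 1 (−1.24) or mCre-TN replicate 1 (−1.06) was left out. Mrc1, the mannose receptor gene, was called beside it in TN when either WT-MP library was left out. Calls over all genes in MP also fell, to 254 without mCre-MP replicate 2 and 264 without WT-MP replicate 1, against 498 with all libraries. With both replicate 1 libraries of WT left out, 0 of the list passed in either subset. The list's median log2 fold change, mCre over WT, was −0.69 in MP and −0.39 in TN, beside 0.00 over all genes, and 21 of 24 had a lower mean over the mCre libraries than over the WT libraries, beside 48.5% of all genes. All 4 mCre libraries lay below all 4 WT libraries for 5 of the 24, beside 2.75% of all genes. For the difference of the genotype effect between subsets edgeR and DESeq2 both called 0. At an unadjusted p under 0.05, 2 passed, with no share of all genes computed. Its most abundant members, apart from Axl, were not called between genotypes. Cd68, a lysosomal protein of macrophages, had 12.6 and 10.2 CPM in mCre-MP and 11.6 and 12.3 CPM in mCre-TN, against 9.96 and 10.6 CPM in WT-MP and 11.7 and 10.6 CPM in WT-TN. Apoe, the apolipoprotein, had 7.85 and 8.34 CPM in mCre-MP and 10.9 and 9.38 CPM in mCre-TN, against 11.1 and 9.69 CPM in WT-MP and 13.3 and 13.5 CPM in WT-TN. Cd68 overlapped between the genotypes, and Apoe overlapped across the 8 libraries but not within either subset.

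Between subsets the same 4 genes of this list passed the test in both genotypes, 4 of 24 where 32.5% of all genes were called in mCre and 31.7% in WT. Fcgr3, an Fc receptor also present on NK cells, rose in MP by 1.15 (SE 0.258, edgeR adjusted p = 0.00182) in mCre and by 1.39 (SE 0.268, edgeR adjusted p = 0.000493) in WT on the log2 scale. The integrin gene Itgad rose by 1.57 (edgeR adjusted p = 0.000334) in mCre and 1.33 (edgeR adjusted p = 0.00206) in WT. Axl rose by 0.43 (edgeR adjusted p = 0.0399) in mCre and 0.73 (edgeR adjusted p = 0.00102) in WT. Cd163 was lower in MP, by log2 fold changes of −2.34 (SE 0.427, edgeR adjusted p = 0.000265) in mCre and −1.26 (SE 0.348, edgeR adjusted p = 0.00896) in WT. Axl in mCre was not called with DESeq2 or with scaling by total counts, nor without mCre-MP replicate 1 or mCre-TN replicate 2. In WT, Itgad was lost without WT-MP replicate 1 or WT-TN replicate 2, and Cd163 without WT-MP replicate 2 or WT-TN replicate 1.

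**Figure D4:**
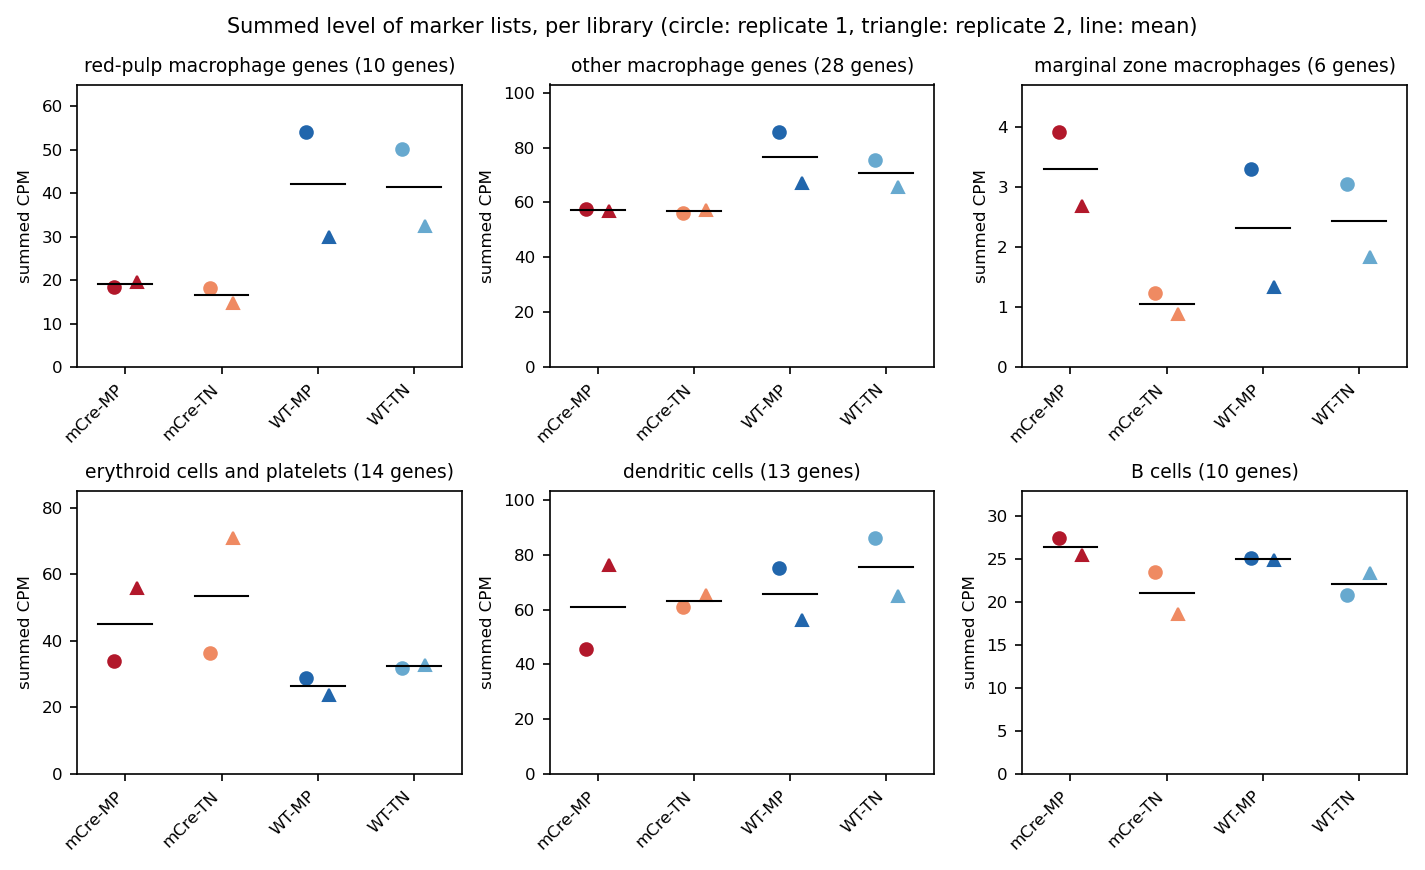
Summed level of 6 marker lists in CPM (y axis, from 0) in each library, by group (x axis); circles are replicate 1, triangles replicate 2 and lines the mean. The 10 red-pulp genes separate by genotype, at 14.8 to 19.7 CPM in mCre and 29.9 to 54.2 CPM in WT, whereas the erythroid list is highest in the mCre replicate 2 libraries.

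Genes of heme and iron handling outside the 10 gave no call between the genotypes. Of 24 tested, edgeR called 0 in MP and 0 in TN, where it called 4.04% and 3.47% of all genes. DESeq2 also called 0 of the 24. At an unadjusted p under 0.05, 3 were higher and 6 lower in MP, and 2 higher and 3 lower in TN. The share of all genes at that threshold was not computed. The list's median log2 fold change, mCre over WT, was −0.019 in MP and −0.015 in TN. The ferritin heavy chain gene Fth1, whose reads may be shared with processed copies, had 377.7 and 399.7 CPM in mCre-MP and 389.1 and 374.4 CPM in mCre-TN, against 395.8 and 430.3 CPM in WT-MP and 390.0 and 433.4 CPM in WT-TN. Pcbp1, an iron chaperone, lay between 240.4 and 266.5 CPM in all 8 libraries. Between subsets, 2 of the 24 rose and 3 fell in mCre, and 3 rose and 5 fell in WT, where 32.5% and 31.7% of all genes were called. DESeq2 called 2 higher and 2 lower in mCre, and 3 higher and 1 lower in WT. The transferrin receptor gene Tfrc was lower in MP in both genotypes (−0.38, SE 0.064, edgeR adjusted p = 0.000104 in mCre, and −0.30, SE 0.066, edgeR adjusted p = 0.00174 in WT). Nfe2l2, the regulator of the oxidative stress response that also acts on Hmox1, was higher in MP (0.22, edgeR adjusted p = 0.00627 in mCre, and 0.30, edgeR adjusted p = 0.000662 in WT). Its call in mCre was lost without mCre-MP replicate 2 or mCre-TN replicate 1.

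The complement genes that act with C1q were nearly silent. C1s1 had 0 counts in all 8 libraries, a count that allows up to 0.0998 CPM in the deepest and 0.223 CPM in the shallowest (3 reads per library, counting error only). C1ra had 7 reads in all. Of 20 complement genes and receptors 9 were tested. Between mCre and WT 1 of the 9 was called in MP and 1 in TN, where 4.04% and 3.47% of all genes were called. In mCre, Calr, a chaperone that C1q can bind, rose in MP (0.28, SE 0.062, edgeR adjusted p = 0.0151), and Cd55, which protects cells from complement, fell in TN (−0.32, SE 0.06, edgeR adjusted p = 0.00517). Calr was not called without mCre-MP replicate 2 or WT-MP replicate 1, nor Cd55 without mCre-TN replicate 2 or WT-TN replicate 2. Calr lay between 567.0 and 762.2 CPM and Cd55 between 118.0 and 149.7 CPM over all libraries. Between subsets 5 of the 9 rose and 1 fell in mCre, where 17.0% of all genes were called higher and 15.5% lower. In WT 4 rose and 0 fell, where 16.2% of all genes were called higher and 15.6% lower. The integrin gene Itgax, a subunit of complement receptor CR4, had 29.8 and 31.1 CPM in mCre-MP and 1.4 and 1.5 CPM in mCre-TN, and 32.8 and 34.5 CPM in WT-MP and 1.48 and 1.24 CPM in WT-TN.

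Markers of other cells were read beside the macrophage genes. Between genotypes, edgeR called 4.04% of all genes in MP and 3.47% in TN after adjustment. For an unadjusted p under 0.05 the share of all genes was not computed. Of 6 marginal zone macrophage markers 1 was tested and not called between genotypes by edgeR, unadjusted or by DESeq2, and Cd209b was at 0 in every library. Their sum was 2.69 to 3.92 CPM in mCre-MP, 0.881 to 1.23 CPM in mCre-TN, 1.33 to 3.29 CPM in WT-MP and 1.83 to 3.04 CPM in WT-TN, so that it overlapped between genotypes in MP but not in TN. Stromal and endothelial markers Emcn, Col3a1, Pdpn and Madcam1 were at 0 in every library, while 5 of the 13 in that list were tested and edgeR and DESeq2 called 0 between genotypes (1 higher in TN at an unadjusted p under 0.05). The 13 dendritic cell markers summed to 45.6 to 76.3 CPM in mCre-MP, 60.9 to 65.3 CPM in mCre-TN, 56.0 to 75.0 CPM in WT-MP and 64.9 to 86.1 CPM in WT-TN. The 10 B cell markers measured summed to 18.6 to 27.4 CPM over all libraries, of which Cd79b alone had 14.0 to 19.3 CPM. In both lists edgeR and DESeq2 called 0 between genotypes, with 0 at an unadjusted p under 0.05. Erythroid and platelet markers summed to 33.9 and 55.8 CPM in mCre-MP and 36.2 and 70.8 CPM in mCre-TN, against 28.8 and 23.6 CPM in WT-MP and 31.8 and 32.7 CPM in WT-TN. Its sum was above every WT library in every mCre library, the opposite order to the macrophage genes, with 0 of 7 tested genes called by edgeR or DESeq2 and 2 higher at an unadjusted p under 0.05 in each subset. Monocyte and neutrophil markers summed to 13.5 and 21.2 CPM in mCre-MP and 11.9 and 13.3 CPM in mCre-TN, against 11.2 to 14.4 CPM in the 4 WT libraries, with 0 of 2 tested genes called by edgeR or DESeq2 and 0 at an unadjusted p under 0.05. Among T cell genes, Thy1 rose in mCre in both subsets (edgeR adjusted p = 1.81e-05 in MP and 0.000192 in TN) and Cd28 fell in MP (edgeR adjusted p = 0.044, DESeq2 adjusted p = 0.0536). Cd28 was not called without mCre-MP replicate 2 or without either WT-MP library. Thy1 had 1559 and 1549 CPM in mCre-MP and 1371 and 1293 CPM in mCre-TN, against 1164 and 1145 CPM in WT-MP and 1024 and 1048 CPM in WT-TN. The part of any of these cells in the macrophage result was not tested.

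Among 11088 named genes outside the 10 with at least 80 counts over all libraries, the pattern closest to that of the summed macrophage level was that of Snx27 (Pearson r of log2 CPM 0.972 over 8 libraries). Mical2 (0.97), N4bp2l1 (0.969), Wdr61 (0.963), Zfp69 (0.944), Ubl3 (0.941), Cadm1 (0.94) and Phax (0.939) came next. The coefficient measures shape and not size, the libraries fall into genotype groups, and so it is given without a p. Snx27 varied little, at 63.6 to 65.3 CPM in the mCre libraries and 67.8 to 75.3 CPM in the WT libraries. Zfp69 varied most of the 8, at 2.93 to 4.69 CPM in mCre and 10.5 to 20.7 CPM in WT. None of the 8 belongs to the macrophage lists.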

How the data were processed

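The values deposited for the 8 libraries were unnormalized read counts by gene symbol. Trim Galore, HISAT2, featureCounts and mm10 are named in the submitters' processing notes. Their versions, the annotation, the strand setting and the treatment of multiply mapped reads are not stated. CPM were computed from the counts and each library's total.

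Differences were tested in edgeR 4.0.16 by quasi-likelihood (R 4.3.3; TMM scaling, robust dispersions, edgeR's expression filter), with all 8 libraries and a mean per group. Tests were two-sided, with Benjamini-Hochberg adjustment over the 12313 genes kept and a threshold of 0.05. All 10 members passed the filter, Spic through the WT libraries. SE is the log2 fold change over the square root of F. The procedure was tested on simulated data in which every gene had the same spread between libraries beyond counting error. That test does not cover genes whose replicates differ more widely, such as the members in WT. The members and the 10 other gene lists were chosen with earlier results of these data known. Named beside the members were called list genes and the most abundant ones, up to 3 each, Cd8a and the sort markers, and the 8 genes closest in pattern by r of log2 CPM (prior count 2). Genes named beyond that (zero-count markers, C1ra, Lrp1, Steap3) were chosen after their values were seen. Alternatives were DESeq2 1.42.0, other scalings and filters, a replicate block and leaving out libraries. Coordinates and exon lengths came from GENCODE M21 (GRCm38, the same assembly as mm10) and are 1-based. Figures were drawn with matplotlib 3.10.9 in Python 3.11.15.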

Additional observations from a re-analysis of the deposited data

How the results depend on the processing

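All 240 alternative values of the members' 20 genotype fold changes stayed below 0, but 29 of them differed from the main value by more than the replicate SD: without WT-TN replicate 1, Adgre1 in TN was at −0.003 (−1.09 with all libraries) and C1qb in TN at −0.195 (−0.94). Scaling by TMM or DESeq2 size factors, or summing without Hmox1, moved the summed log2 ratio by less than the replicate spread in each comparison. Leaving out 1 library at a time gave summed log2 ratios of 0.069 to 0.369 for MP over TN in mCre, −0.47 to 0.39 for MP over TN in WT, −1.51 to −0.65 for mCre over WT in MP and −1.61 to −0.98 in TN; without both replicate 1 libraries of WT, chosen after seeing the data, the genotype values were −0.65 and −0.98. The number of all genes called, main value and then range with 1 library left out, was 4000 (2797 to 4187) and 3908 (2879 to 3836) for MP against TN in mCre and WT, 498 (195 to 593) and 427 (204 to 446) for mCre against WT in MP and TN, and 16 (9 to 32) for the interaction. Without the filter it was 888, 783 and 81 for the last 3, DESeq2 gave 26 for the interaction, and without both WT replicate 1 libraries it was 2330 for MP against TN in WT, 314 for mCre against WT in MP and 9 for the interaction. Other macrophage genes called with 1 library left out numbered 3 to 4 between subsets in either genotype, 0 to 4 for mCre against WT in MP, 0 to 2 in TN and 0 for the interaction. In TN the main count of 1 became 2 with DESeq2, 2 with the stricter filter, 5 with none, and 0 without both WT replicate 1 libraries, which also left 0 in MP. The cause of these moves was not tested, apart from the fewer samples where libraries were left out. Replicate numbers are shared across groups, but the labels do not say what a number marks, and the replicate differences of the 6 pairs of groups correlated between −0.0447 and 0.109 over genes. With the replicate number as a block the counts of all genes were 4145, 4036, 617, 548 and 18, in TN 4 other macrophage genes were called, and members past the threshold numbered 5 in MP and 6 in TN, against 2 and 4 without it. Depth limits the members to 3 to 222 reads per library.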

Other observations

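Globin transcripts were highest in the replicate 2 libraries of mCre. The beta-globin gene Hbb-bt was at 2.83 and 15.3 CPM in mCre-MP and 3.96 and 16.6 CPM in mCre-TN, against 2.39 and 2.06 CPM in WT-MP and 2.89 and 3.39 CPM in WT-TN. Its near-identical neighbour Hbb-bs was at 11.8 and 17.0 CPM in mCre-MP and 12.3 and 26.5 CPM in mCre-TN, against 11.0 and 6.22 CPM in WT-MP and 10.5 and 10.3 CPM in WT-TN, and reads may have been split between them. Some neutrophil genes were found almost wholly in 1 library. Ltf, which encodes lactoferrin, had 31 reads in mCre-MP replicate 2 and 3 in WT-TN replicate 2, and 0 in the other libraries. S100a8 had 23 and 2 reads in the same libraries and 0 in the others. Other granule genes were not: Ngp had 3 to 29 reads in the mCre libraries and 4 to 17 in the WT libraries, and Camp 0 to 7 and 1 to 5. The sum of the macrophage genes in mCre-MP replicate 2, 19.7 CPM, was close to that in mCre-MP replicate 1, 18.4 CPM. These genes were chosen after their values were seen.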
